A study of Mus musculus with 12 samples.

Results

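The genes described here encode axon guidance ligands and receptors. They were taken by gene symbol alone, as the semaphorins of classes 3 to 7, the plexins and neuropilins, the Eph receptors and ephrins, the Slits and Robos, and the netrins with their receptors Dcc and Unc5. The rule found 69 of 52169 gene symbols, with 701 of 189660 transcripts in the deposited count table. They comprised 20 semaphorins, 11 plexins and neuropilins, 14 Eph receptors, 8 ephrins, 7 Slits and Robos, and 9 netrins and netrin receptors. Each gene was read at its most abundant transcript, the transcript with the highest mean level over all libraries.

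RNA was sequenced from striatal punches of C57BL/6J mice whose right medial forebrain bundle had been injected with 6-OHDA, a toxin that destroys dopaminergic axons, so that the right striatum was lesioned and the left was not. All mice had been protected against noradrenergic damage with desipramine (25 mg/kg), all recovered for 2 weeks, and all received L-DOPA, the precursor of dopamine, at 10 mg/kg with 7.5 mg/kg of benserazide. The 4 groups of 3 libraries each were the unlesioned and the lesioned striatum after a single dose (acute) and after 9 days of daily dosing (chronic), always 1 hour after the last injection. No group went without L-DOPA, so a difference between lesioned and unlesioned tissue holds the effect of the lesion and of L-DOPA on denervated tissue together, and these cannot be told apart. The age of the mice was not given in the sources used here, and the labels count 12 mice for the 12 libraries. The study asked whether L-DOPA in the dopamine-depleted striatum induces histone phosphorylation at genes repressed by Polycomb group proteins. Its RNA sequencing served to ask how far the expression of such genes changes, after a first and after repeated doses.

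Guidance cues steer growing axons by attraction or repulsion and, in the adult brain, act on dendritic spines, synapses, myelin and vessels. Semaphorins signal through plexins, and most secreted class 3 semaphorins need a neuropilin as co-receptor. Ephrins are bound to the membrane, ephrin-A by a lipid anchor and ephrin-B by a transmembrane segment, and their Eph receptors are receptor tyrosine kinases, so that signals pass into both of the touching cells. Slits repel axons that carry Robo receptors. Netrins attract through Dcc and repel through Unc5 receptors. In the striatum several of these systems are known for placing cortical, thalamic and dopaminergic inputs on medium spiny neurons.

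Every library held 87695043 to 173116525 counts over all named transcripts, where a read is counted on each transcript it overlaps. Ppp1r1b (DARPP-32), a defining marker of striatal medium spiny neurons, was present in all 12 libraries, at 364 to 634 CPM (CPM, the share of a library's counts scaled to a common total, after TMM scaling). The summed level of 14 striatal neuron markers was 2210 to 3050 CPM, and the list itself moved, with 4 called higher and 7 lower in the lesioned striatum after acute and 3 higher and 1 lower after chronic dosing. Slc17a7, a marker of cortical glutamatergic neurons, was uneven, from 1.24 to 32.7 CPM, at 1.24 to 12.2 CPM in the acute and 1.29 to 17.8 CPM in the chronic lesioned libraries and at 10.1 to 23.4 and 4.0 to 32.7 CPM in the unlesioned ones. Chronic unlesioned replicate 2 stood apart by choroid plexus RNA, with Ttr at 451 CPM against at most 1.5 CPM in the other libraries. The summed level of 11 oligodendrocyte markers was 2300 to 3820 CPM in the acute lesioned, 1290 to 2280 CPM in the chronic lesioned, 2270 to 2560 CPM in the acute unlesioned and 1720 to 2460 CPM in the chronic unlesioned libraries. In such bulk tissue, fewer cells of a type and less RNA per cell cannot be told apart.

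Promoters of these genes were read from the RefSeq table of the mouse genome (build GRCm38.p6), which holds windows of 300 bases, from 250 bases before to 50 bases after a gene's start, for 59 of the 69 genes. Each window was searched on both strands for the letters of the CRE (TGACGTCA), the AP-1 site (TGANTCA) and the EGR site (GCGTGGGCG), sequences bound by factors that dopamine D1 receptor signaling activates in the striatum. No match of a motif overlapped a match of another, since each gene with a match held letters of 1 motif only. Among the 69 genes, Epha2, which had the largest lesion difference, and Sema4c, the semaphorin with the largest rise, each held a match close to the start, and their 250 bases upstream of the RefSeq start are shown for that reason, 5′ to 3′ on the gene's strand with the match in capitals.
Epha2: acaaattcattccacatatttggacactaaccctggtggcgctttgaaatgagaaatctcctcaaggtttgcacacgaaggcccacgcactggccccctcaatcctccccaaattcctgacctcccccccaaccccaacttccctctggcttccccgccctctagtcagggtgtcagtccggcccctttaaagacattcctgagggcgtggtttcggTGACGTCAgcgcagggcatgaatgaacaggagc
Sema4c: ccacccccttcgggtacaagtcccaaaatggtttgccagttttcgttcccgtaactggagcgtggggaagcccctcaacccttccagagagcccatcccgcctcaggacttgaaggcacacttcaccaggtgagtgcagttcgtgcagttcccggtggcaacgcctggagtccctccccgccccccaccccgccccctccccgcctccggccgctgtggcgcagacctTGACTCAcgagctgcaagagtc
The Epha2 stretch lies on the plus strand at chr4:141300971-141301220 in GRCm38.p6, and its CRE letters begin 33 bases before the start. The same window matched at a single place in mm9, the build of the deposited table, where the CRE letters are at chr4:140857103-140857110. The Epha2 transcript read here starts 19 bases downstream of the RefSeq start in mm9. The Sema4c stretch lies on the minus strand at chr1:36558382-36558631 in GRCm38.p6, its AP-1 letters begin 22 bases before the start, and in mm9 they are at chr1:36615242-36615248. The transcript of Sema4c read here starts 32 bases downstream of its RefSeq start in mm9. In mm9 the transcripts read span chr4:140857155-140885293 (Epha2) and chr1:36605487-36615194 (Sema4c).

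The remaining matches are shown as 30 bases around the letters, because they belong to genes whose values are given later on.
Efna3, EGR: cagtatgggtCGCCCACGCgcggcgcgctc
Plxna2, EGR: cgggcggggcGCGTGGGCGgggagggggtt
Sema4d, AP-1: ccccacatcccTGAATCAgcctatatagga
Sema6b, AP-1: cacacgtactcTGAGTCAcaaatcctggaa
The capitals mark the matched letters, read on the opposite strand in Efna3. The stretches lie at chr3:89323030-89323059 (Efna3, minus strand), chr1:194619732-194619761 (Plxna2, plus strand), chr13:51749031-51749060 (Sema4d, minus strand) and chr17:56133882-56133911 (Sema6b, minus strand) of GRCm38.p6. For Sema4d and Sema6b the window belongs to another start than that of the transcript read here, 44863 and 6491 bases away in mm9. Of the 59 genes, 1 held a CRE (1.69%), 3 an AP-1 site (5.08%) and 2 an EGR site (3.39%), against 2.03%, 8.97% and 0.707% of all 27025 genes in the promoter table. Per window, the letters stood in 1.79%, 7.81% and 0.612% of all 32851 windows. A match is a description of the letters, and no match says only that the letters are not in the window. The windows of Efnb1, Ephb6 and Sema7a, which also rose after chronic L-DOPA, held none of the 3 motifs.

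The levels of different genes were compared as CPM per kb of transcript. Of the 69 genes, 25 averaged at least 1 CPM per kb over the 12 libraries and 65 at least 0.1 CPM per kb. The most abundant gene was Efnb3, a transmembrane ephrin, at 14.0 CPM per kb (SD 1.66, n = 12 libraries). Sema7a, a semaphorin held by a lipid anchor, led its family at 8.54 CPM per kb, followed by Sema6b at 5.99 CPM per kb. Among the Eph receptors Ephb6, whose kinase domain lacks catalytic activity, stood at 5.50 CPM per kb and Epha4, which binds both ephrin classes, at 5.24 CPM per kb, and over the libraries their ranges overlapped. Unc5a led the netrin receptors at 4.28 CPM per kb, Plxnd1, the receptor of Sema3e, led the plexins at 4.02 CPM per kb, and Robo2 led its family at 3.24 CPM per kb. The netrins themselves were low, between 0.388 CPM per kb for Ntn3 and 0.594 CPM per kb for Ntn1 among the netrins tested. Epha1, with 3 to 12 counts a library, and Ntn5, with 0 to 8 counts, were under the count filter in every comparison and were not tested. Efna4, with 2 to 21 counts, was tested where the acute lesioned libraries entered and left out elsewhere.

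**Figure D1:**
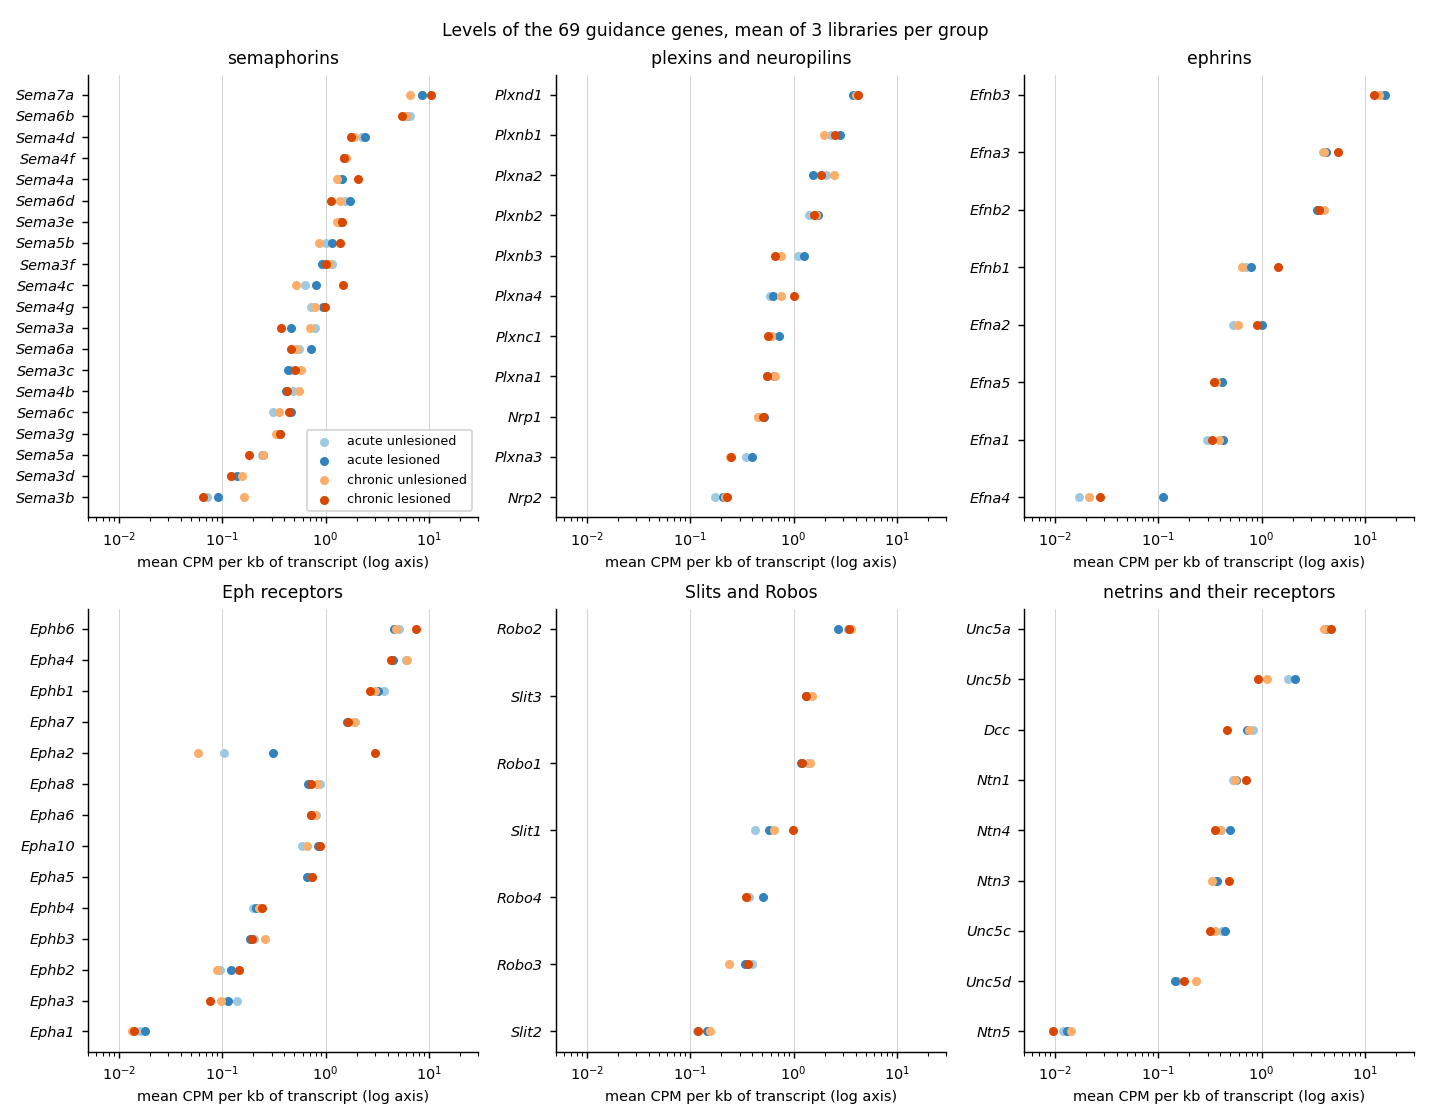
Mean level of each gene in CPM per kb of transcript (log axis) by family, with 1 point for each group of 3 libraries. Most genes hold nearly the same level in the 4 groups, Epha2 spans the widest range, and Epha1, Efna4 and Ntn5 lie at the bottom.

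Across the 4 groups most of these genes moved little. The ratio of the highest to the lowest group mean had a median of 1.39 and was under 1.5 in 44 and under 2 in 61 of the 69 genes. It reached 51.3 for Epha2, 6.49 for Efna4, 2.81 for Sema4c, 2.5 for Sema3b, 2.34 for Slit1, 2.28 for Unc5b, 2.26 for Efnb1 and 2.11 for Sema3a. The value of Sema3b came from chronic unlesioned replicate 2, the library with choroid plexus RNA, where it stood at 1.28 CPM against 0.146 to 0.337 CPM in the other 11 libraries, and Sema3b was called in no comparison.

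After the first dose of L-DOPA the lesioned striatum had more RNA of the ephrin receptor Epha2 and of its ligand class member Efna2, and less of the repellent semaphorin Sema3a, than the unlesioned striatum. A gene was called when its Benjamini-Hochberg adjusted p in edgeR's quasi-likelihood test was under 0.05. By this rule 17 of the 67 genes tested were called (25.4%), 10 higher and 7 lower, where 15.3% of all genes tested at their most abundant transcript were called (8.16% higher and 7.16% lower) and 19.9% of those averaging at least 1 CPM. Of the 60 members at that level, 16 were called (26.7%). Only 3 rose and 1 fell by at least 1.5 fold (3.73% and 1.05% of all genes). The median log2 fold change of the members was 0.09, against 0.02 over all genes. With 3 libraries a group, the libraries of the 2 groups did not overlap in 35.1% of all genes tested. Ligands made up 7 of the 10 genes called higher and receptors 6 of the 7 called lower, where 34 ligands and 33 receptors were tested. After chronic dosing 8 ligands were called higher and 1 lower, and 4 receptors were called higher and 2 lower. By family, 4 of 20 semaphorins were higher and 1 lower, 2 of 13 Eph receptors were higher and 3 lower, 2 of 8 ephrins were higher, 1 of 7 Slits and Robos was higher and 2 were lower, and 1 of 11 plexins and neuropilins was higher and 1 lower. Because the labels count 12 mice while the study describes the unlesioned striatum as the control side of lesioned mice, the p-values measure the spread between these libraries.

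Epha2 stood at 0.394, 0.500 and 0.329 CPM in the acute unlesioned and at 1.23, 1.31 and 1.13 CPM in the acute lesioned libraries. All lesioned values lay above all unlesioned ones, a difference of 1.59 on the log2 scale (SE 0.16, 3.01-fold, adjusted p = 4.66e-05). Efna2 stood at 1.15, 0.950 and 1.25 CPM against 2.25, 1.88 and 2.33 CPM. Its groups did not overlap either, and it rose 1.95-fold (log2 0.96, SE 0.13, adjusted p = 0.000475). Efna4, a ligand of the same class, had 3, 7 and 2 counts in the unlesioned and 18, 21 and 17 counts in the lesioned libraries. That is a rise of 2.66 on the log2 scale (SE 0.46) at a level near the floor of 3 counts. Efna4 passed the count filter only through the lesioned libraries, in which it was high. Its call by edgeR (adjusted p = 0.00311) depends on that and is not taken as support. Exons of Efna4 overlap those of 4731419I09Rik on the other strand. The reads cannot be told apart, because the strand used in counting is not given in the sources used here. Its neighbours in the ephrin-A cluster of chromosome 3, Efna3 (10.4 kb away) and Efna1 (34.3 kb further), had log2 differences of 0.08 and 0.51 and were not called.

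Sema3a, which repels axons through neuropilin 1 and A-type plexins, stood at 4.70, 4.75 and 4.61 CPM in the acute unlesioned and at 2.87, 2.81 and 2.61 CPM in the lesioned libraries. The groups were far apart, the unlesioned replicates were nearly equal, and the fall was 0.75 on the log2 scale (log2 -0.75, SE 0.08, adjusted p = 5.1e-05). Of 11 markers of cortical neurons, 2 were called lower (Neurod6 and Stx1a) and 1 higher (Cux2), with a median log2 difference of -1.03. Without Nptx1, which rose after chronic dosing (log2 2.97, adjusted p = 0.000102), the other 10 summed to 26.2 to 45.1 CPM in the acute unlesioned and 14.0 to 29.2 CPM in the acute lesioned libraries. Slc17a7 ranged from 10.1 to 23.4 CPM over the unlesioned libraries in which Sema3a spanned 4.61 to 4.75 CPM. The part of cortical tissue in the fall of Sema3a was not tested. Plxna2, a plexin of the A type, stood at 22.3, 23.0 and 22.5 CPM against 17.8, 16.4 and 16.4 CPM, and fell by 0.41 on the log2 scale (SE 0.06, adjusted p = 0.000889). Epha4 stood at 36.6, 36.5 and 39.7 CPM against 29.8, 28.8 and 26.8 CPM and fell by 0.39 (SE 0.06, adjusted p = 0.0019). In both genes every lesioned library lay below every unlesioned one.

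Smaller falls were called for the Eph receptors Epha8 (log2 -0.35) and Epha7 (-0.22) and for Robo2 (-0.31) and Robo1 (-0.23), both receptors of Slits. Their ligand Slit1 was higher (log2 0.45, adjusted p = 0.0267), as were the membrane-bound semaphorins Sema6c (0.57), Sema4g (0.42), Sema6a (0.39) and Sema4c (0.36), the kinase-inactive receptor Epha10 (0.51) and Plxnb1 (0.31), the receptor of Sema4d. None of the 8 netrins and netrin receptors tested was called by edgeR, 1 of them (Ntn4) had an unadjusted p under 0.05, and Dcc had a log2 difference of -0.18. With the replicate number as a block, Dcc (-0.19, adjusted p = 0.0373) and Ntn4 (0.28, adjusted p = 0.0491) were called. Every other transcript tested of a called gene had the direction of the transcript given here. In the lesioned libraries 5 of 11 microglial markers, 3 of 9 astrocyte markers and 2 of 11 oligodendrocyte markers were called higher as well, and the part of such cells in the smaller changes was not tested. The calls of Epha2, Efna2, Sema3a, Plxna2, Epha4 and Plxnb1 held under every alternative tried, and 10 others were lost under at least 1 of them. That of Efna4 held in the 11 alternatives with a value, but Efna4 passed the count filter only through the lesioned libraries. The count was 10 without acute unlesioned replicate 1, 10 without acute unlesioned replicate 3 and 10 in a fit on all 12 libraries, where the share of all genes called was 9.4%, 8.96% and 10.4%.

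After 9 days of L-DOPA Epha2 was 50.3-fold higher in the lesioned striatum, and the transmembrane semaphorin Sema4c and the transmembrane ephrin Efnb1 were 2.81-fold and 2.26-fold higher. Sema3a and Epha4 were again lower, and so was Dcc, the receptor by which netrin attracts. In all, 15 of 66 genes tested were called (22.7%), 12 higher and 3 lower, where 13.7% of all genes were called (8.46% higher and 5.2% lower), and 17.3% of all genes averaging at least 1 CPM. Of the 60 members at that level, 15 were called (25.0%). Of these, 10 rose and 2 fell by at least 1.5 fold (5.06% and 2.13% of all genes). The median of the members was -0.08 on the log2 scale, against -0.01 over all genes, and 27 members had a positive and 38 a negative difference. Over all genes tested, the libraries of the 2 groups did not overlap in 32.1%. By family, 4 of 20 semaphorins, all of them membrane-bound, were higher and 1 was lower, 3 of 13 Eph receptors were higher and 1 lower, 3 of 7 ephrins, 1 of 7 Slits and Robos and 1 of 11 plexins and neuropilins were higher, and 1 of 8 netrins and netrin receptors was lower.

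**Figure D2:**
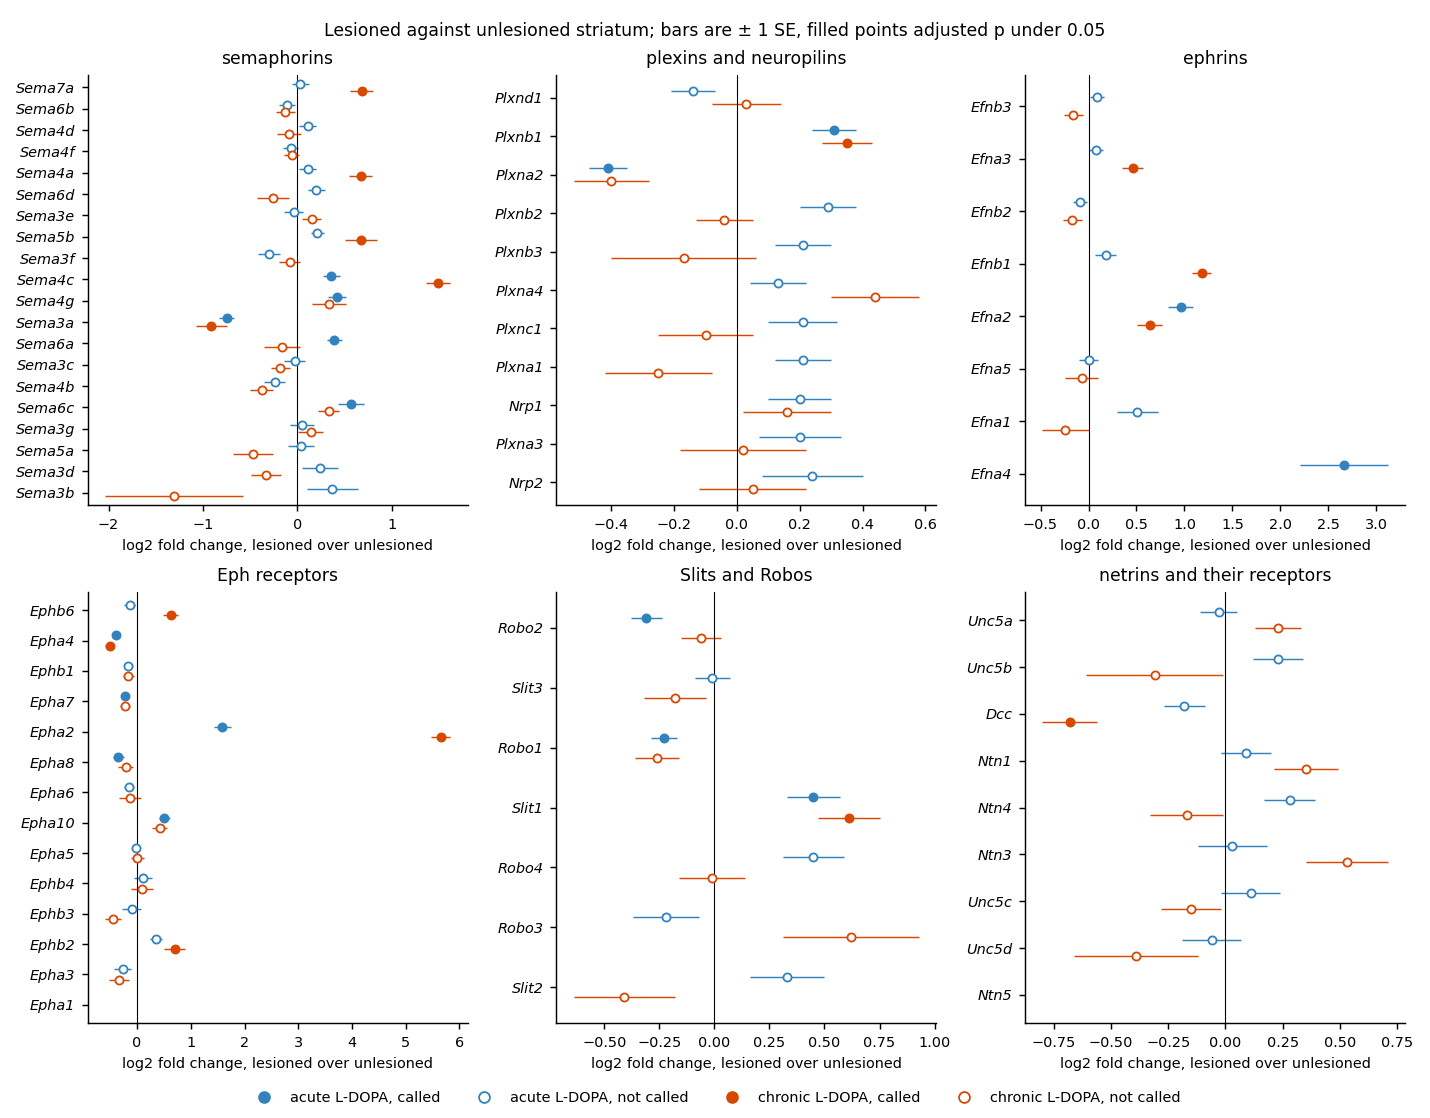
Log2 fold change of lesioned over unlesioned striatum for each gene tested, after acute (blue) and chronic (orange) L-DOPA, with bars of 1 SE, where filled points passed the adjusted p of 0.05 and the axis differs between families. Epha2 lies far to the right at 1.59 and 5.65, Sema3a and Epha4 lie to the left in both, and Sema4c and Efnb1 are higher after chronic than after acute dosing.

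Epha2 stood at 0.201, 0.201 and 0.283 CPM in the chronic unlesioned and at 10.7, 13.9 and 10.5 CPM in the chronic lesioned libraries. The lowest lesioned library was above every other library of the series, and the difference was 5.65 on the log2 scale (SE 0.18, adjusted p = 2.22e-08). Among the 13015 genes tested that averaged at least 1 CPM in either group, this was the fourth largest rise (rank 4), where the acute difference of Epha2 had held rank 84 of 13062. The 5 other transcripts of Epha2 tested had log2 differences between 5.61 and 6.47. They are no separate evidence, since transcripts of a gene share reads. Only 3 of them were tested in the acute comparison and 2 between the unlesioned groups, so some passed the count filter only through the chronic lesioned libraries. Sema4c, the ligand of Plxnb2, stood at 2.18, 1.69 and 2.06 CPM against 5.51, 6.20 and 4.89 CPM. The groups were widely separate (log2 1.49, SE 0.13, adjusted p = 3.75e-05). Efnb1, a ligand of EphB receptors, stood at 2.12, 1.94 and 2.21 CPM against 4.53, 4.92 and 4.76 CPM. The lesioned libraries differed little among themselves, and the rise was 1.18 (SE 0.10, adjusted p = 2.65e-05).

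Sema7a, which binds Plxnc1 and integrins, stood at 18.8, 24.9 and 21.1 CPM in the chronic unlesioned and at 32.8, 31.1 and 39.9 CPM in the lesioned libraries. The groups did not overlap (log2 0.68, SE 0.12, adjusted p = 0.00437), and its receptor Plxnc1 had a log2 difference of -0.10 that was not called. Sema4a, a ligand of plexins of the B and D types, stood at 4.57, 3.44 and 4.51 CPM against 6.94, 6.00 and 7.04 CPM. It rose by 0.67 (SE 0.12, adjusted p = 0.0051) with no overlap. Ephb6 stood at 17.6, 17.4 and 19.3 CPM against 26.6, 22.0 and 35.4 CPM. The lesioned values were all higher but uneven, and the rise of 0.63 (SE 0.14, adjusted p = 0.017) was lost without chronic unlesioned replicate 1 (adjusted p = 0.0618). Efna2 stood at 1.42, 1.19 and 1.13 CPM against 2.07, 1.82 and 1.92 CPM, again with every lesioned library above the unlesioned ones (log2 0.64, SE 0.13, adjusted p = 0.00951). The 14 striatal neuron markers summed to 2830, 2310 and 3050 CPM in the chronic lesioned libraries and to 2360, 2210 and 2360 CPM in the unlesioned ones. Replicate 2 was the lowest chronic lesioned library in this sum and also for Ephb6, Sema4a, Sema7a, Efna3 and Sema5b, and the part of striatal neuron RNA in these rises was not tested.

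Ephb2, a receptor of ephrin-B, stood at 0.795, 1.18 and 0.931 CPM in the chronic unlesioned and at 1.46, 1.93 and 1.30 CPM in the lesioned libraries (log2 0.70, SE 0.19, adjusted p = 0.0392). Sema5b stood at 3.92, 3.09 and 5.07 CPM against 7.12, 5.43 and 6.79 CPM (log2 0.67, SE 0.17, adjusted p = 0.0247). Slit1 stood at 3.60, 3.23 and 4.22 CPM against 6.81, 5.10 and 4.96 CPM (log2 0.61, SE 0.14, adjusted p = 0.0191). In these 3 genes all lesioned values were above all unlesioned ones, with gaps that were small beside the spread of the groups. Efna3 was 0.46 and Plxnb1 0.35 higher on the log2 scale (adjusted p = 0.0265 and 0.0237). Exons of Efna3 share 344 of 2434 bases with Gm15998 and those of Plxnb1 share 210 of 8952 bases with Gm7628, both on the other strand, so that their reads cannot be told apart. The same holds for smaller shared stretches of Plxna4, Epha10 and Ntn3, the last of which also overlaps Tbc1d24 on its own strand. These 5 calls were each lost without chronic unlesioned replicate 1 and in 1 or more other fits that left out a single library, with adjusted p of up to 0.131 for Ephb2, 0.0907 for Sema5b, 0.0659 for Slit1, 0.111 for Efna3 and 0.0984 for Plxnb1. Without that replicate 9 members and 8.76% of all genes were called. Without chronic unlesioned replicate 2, the library with choroid plexus RNA, the count was 17 (11 higher and 6 lower), beside 12.4% of all genes.

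Sema3a stood at 3.64, 4.23 and 4.64 CPM in the chronic unlesioned and at 1.84, 2.81 and 2.00 CPM in the lesioned libraries. As after the first dose, the groups did not overlap (log2 -0.91, SE 0.16, adjusted p = 0.00479). The cortical markers without Nptx1 summed to 17.4 to 58.7 CPM in the chronic unlesioned and 12.9 to 34.1 CPM in the lesioned libraries, and their part was not tested. Its co-receptor Nrp1 had log2 differences of 0.20 acute and 0.16 chronic, and neither was called. Epha4 stood at 39.4, 35.0 and 42.8 CPM against 28.9, 27.5 and 25.9 CPM and fell by 0.51 (SE 0.09, adjusted p = 0.00537). Dcc stood at 6.75, 7.59 and 8.90 CPM against 4.55, 5.31 and 4.62 CPM, with all lesioned values lower (log2 -0.68, SE 0.12, adjusted p = 0.00369). The other netrin receptors Unc5a, Unc5b, Unc5c and Unc5d had log2 differences of 0.23, -0.31, -0.15 and -0.39, which edgeR did not call without the replicate block. With the block it called Unc5a (adjusted p = 0.0204) and Unc5b (adjusted p = 0.0273).

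The fits above hold no pairing, and a replicate block took lesioned and unlesioned libraries of a number as pairs, as the processing section describes. With the replicate number as a block, 27 of the members were called in the chronic comparison (19 higher and 8 lower), including the 15 called without it, where 24.2% of all genes were called. The 12 genes added, which were listed after their values were seen, were Ntn3 (log2 0.55), Plxna4 (0.45), Epha10 (0.42), Ntn1 (0.35), Sema4g (0.34), Sema6c (0.33) and Unc5a (0.23) among the higher, and Sema4b (-0.38), Plxna2 (-0.38), Unc5b (-0.31), Robo1 (-0.25) and Epha7 (-0.22) among the lower. In the acute comparison the block gave 25 called members (16 higher and 9 lower), including all 17 called without it, where 25.1% of all genes were called. The 8 genes added, likewise listed after their values were seen, were Robo4 (0.46), Ephb2 (0.36), Plxnb2 (0.29), Ntn4 (0.28), Sema5b (0.21) and Sema6d (0.19) among the higher and Sema3f (-0.30) and Dcc (-0.19) among the lower.

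**Figure D3:**
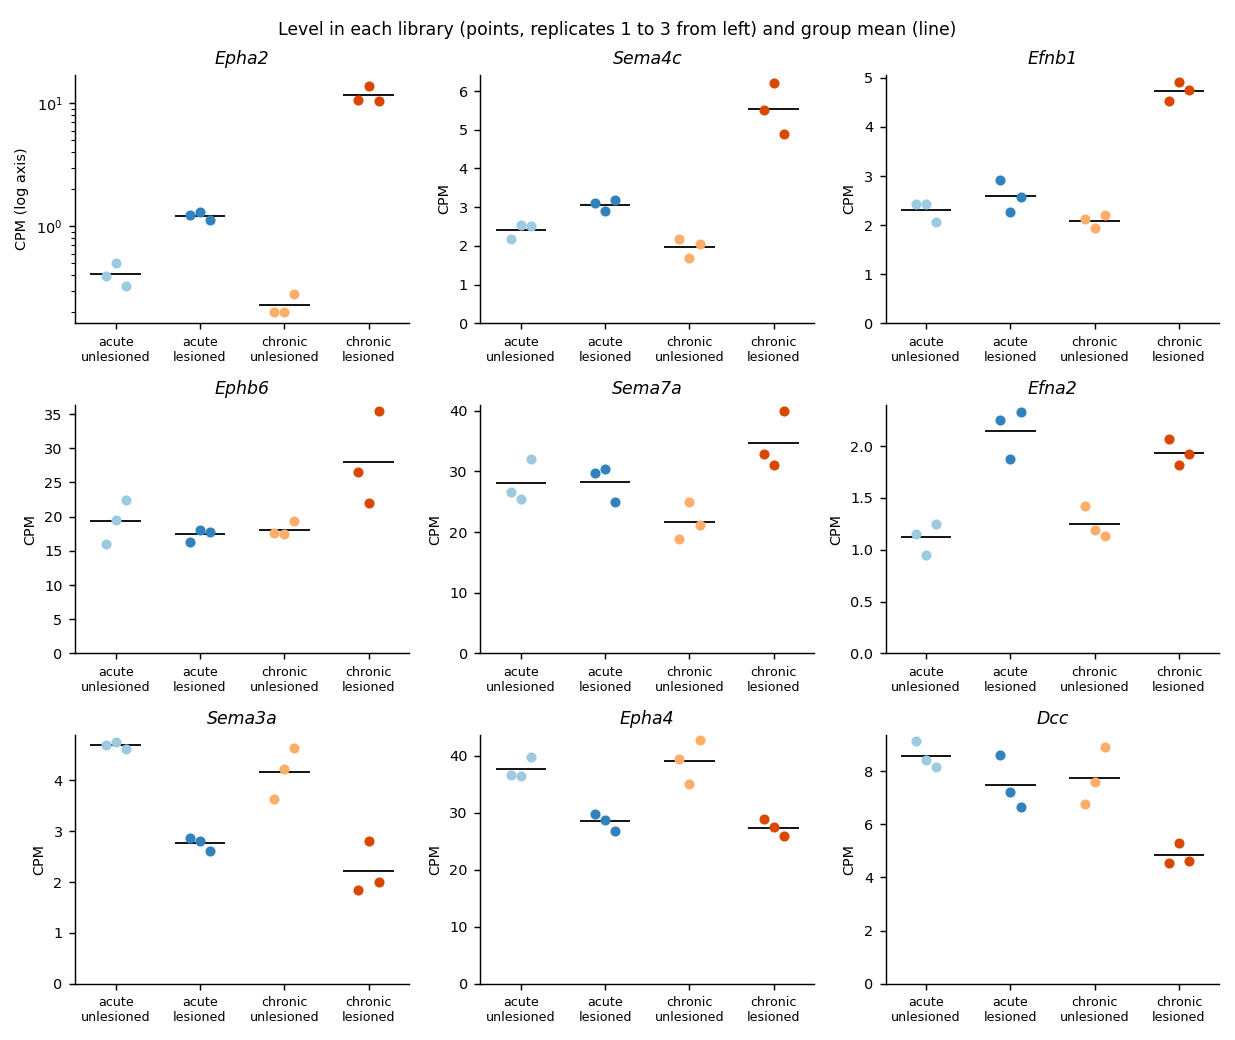
Level in CPM of 9 genes in each of the 12 libraries (points, replicates 1 to 3 from left to right) with the group mean (line), on a log axis for Epha2 and from 0 for the others. Epha2, Sema4c and Efnb1 are highest in the 3 chronic lesioned libraries, Sema3a and Epha4 are low in both lesioned groups, and Dcc is low in the chronic lesioned group.

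Both lesion comparisons, which share no library, called 7 genes, namely Epha2, Efna2, Sema4c, Slit1 and Plxnb1 as higher and Sema3a and Epha4 as lower. These are 41.2% of the 17 acute and 46.7% of the 15 chronic calls, and all 7 had the same direction in both. Over all genes 1019 were called in both, which are 32.6% of the acute and 37.8% of the chronic calls, and 96.6% of them had the same direction. With the replicate block 16 members were called in both, all in the same direction, which are 64.0% of 25 acute and 59.3% of 27 chronic calls, against 41.1% and 43.9% over all genes, of which 88.8% had the same direction. Whether the difference between lesioned and unlesioned tissue was another after chronic than after acute dosing was tested as an interaction on all 12 libraries. Of 67 genes tested 5 were called, all with a larger lesioned over unlesioned ratio after chronic dosing, where 5.1% of all genes were called, 3.53% in that direction, and 7.31% of those averaging at least 1 CPM. Of the 60 members at that level, 5 were called (8.33%). They were Epha2 (log2 4.07, SE 0.26, adjusted p = 2.79e-07), Sema4c (1.13, SE 0.16, adjusted p = 0.000751), Efnb1 (1.00, SE 0.15, adjusted p = 0.000844), Ephb6 (0.78, SE 0.20, adjusted p = 0.0381) and Sema7a (0.66, SE 0.17, adjusted p = 0.0382). The first 3 were called under every alternative. Ephb6 lost its call in 10 and Sema7a in 9 of the fits that left out 1 of the 12 libraries, with adjusted p of up to 0.105 in each.

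In Efnb1 the acute lesioned libraries, at 2.91, 2.27 and 2.58 CPM, overlapped the acute unlesioned ones at 2.43, 2.44 and 2.07 CPM, and the acute difference of 0.18 was not called. In Sema4c the acute lesioned libraries stood at 3.10, 2.89 and 3.19 CPM, above the unlesioned ones at 2.17, 2.54 and 2.51 CPM. That acute rise was lost in the fit on all 12 libraries and without either acute unlesioned replicate 1 or 3 or acute lesioned replicate 1 or 3 (adjusted p up to 0.104). In Sema7a the acute groups overlapped, at 26.6, 25.4 and 32.0 CPM unlesioned and 29.7, 30.3 and 25.0 CPM lesioned. The chronic unlesioned libraries of Sema7a, at 18.8 to 24.9 CPM, were all below the acute unlesioned ones (log2 -0.37), a difference that was not called (adjusted p = 0.0935). Those of Epha2, at 0.201 to 0.283 CPM, were also below the acute unlesioned ones at 0.329 to 0.500 CPM, on 22 to 69 counts. That difference enters the interaction of Epha2 and was not called either. With the replicate number as a block the interaction called 16 members (10 higher and 6 lower), including the 5, where 13.4% of all genes were called. Among the genes added, which were listed after their values were seen, were Sema4a (0.58), Sema5b (0.48) and Efna3 (0.38) with a larger and Dcc (-0.49), Unc5b (-0.53), Sema6a (-0.56) and Sema6d (-0.46) with a smaller lesioned over unlesioned ratio after chronic dosing. Leaving out chronic lesioned replicate 2 gave 12 called members and 7.84% of all genes. The count was 3 without acute unlesioned replicate 3, without acute lesioned replicate 1 or 2, without chronic unlesioned replicate 1 and without chronic lesioned replicate 1 or 3, where 3.27% to 3.97% of all genes were called.

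Between the 2 lesioned groups, chronic against acute, 24 of 67 genes tested were called (35.8%), 11 higher and 13 lower, where 25.6% of all genes were called (12.5% higher and 13.1% lower) and 31.5% of those averaging at least 1 CPM. Of the 60 members at that level, 22 were called (36.7%). At least 1.5-fold changes were 6 rises and 7 falls (5.2% and 6.24% of all genes), and the median was 0.0, against -0.02 over all genes. Over all genes tested, the libraries of the 2 groups did not overlap in 41.9%. This comparison and the lesion comparisons share libraries, so its values are given beside theirs and not as further evidence for them. Among the rises Epha2 differed by 3.26 (SE 0.13, adjusted p = 1.57e-07), Efnb1 by 0.86, Sema4c by 0.85, Ephb6 by 0.69 and Sema4a by 0.51 on the log2 scale. Plxna4, a receptor that class 3 and class 6 semaphorins use, stood at 9.22, 7.14 and 7.72 CPM in the acute and at 12.3, 14.4 and 11.8 CPM in the chronic lesioned libraries. Its groups did not overlap (log2 0.67, SE 0.11, adjusted p = 0.00208). Slit1 stood at 2.66, 3.42 and 3.75 CPM against 6.81, 5.10 and 4.96 CPM, with every chronic library higher (log2 0.78, SE 0.15, adjusted p = 0.00471). Smaller rises were called for Ntn3 (0.40), Efna3 (0.40), Robo2 (0.36) and Plxna2 (0.28). Of these, the calls of Ntn3, Efna3 and Plxna2 were lost in 6, 4 and 4 of the 12 alternatives, with adjusted p of up to 0.148, 0.0893 and 0.102.

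The largest falls were those of Efna4 (log2 -2.0, at 17 to 21 against 2 to 6 counts) and of Unc5b, a repulsive netrin receptor. Unc5b stood at 14.8, 12.0 and 10.1 CPM in the acute and at 3.88, 7.84 and 4.44 CPM in the chronic lesioned libraries. The groups did not overlap, and the fall was 1.18 on the log2 scale (SE 0.23, adjusted p = 0.0044). Plxnb3, the plexin that binds Sema5a, stood at 8.53, 7.55 and 7.45 CPM against 2.72, 5.50 and 4.22 CPM and fell by 0.91 (SE 0.19, adjusted p = 0.00685). Plxna3, 557 kb from Plxnb3 on the X chromosome, stood at 2.33, 2.67 and 3.19 CPM against 1.47, 2.32 and 1.33 CPM and fell by 0.67 (SE 0.20, adjusted p = 0.0316). In these 3 genes the chronic libraries were all lower, and replicate 2 was the highest of them. The transmembrane semaphorin Sema6a stood at 5.42, 4.72 and 4.66 CPM against 2.69, 4.18 and 2.72 CPM (log2 -0.62, SE 0.16, adjusted p = 0.0178). Sema6d stood at 13.1, 10.3 and 10.6 CPM against 6.65, 9.38 and 6.09 CPM (log2 -0.62, SE 0.15, adjusted p = 0.0156). Neither overlapped, whereas Sema4d, which fell by 0.45 (adjusted p = 0.0321), had overlapping groups at 9.10 to 12.1 and 6.92 to 9.39 CPM. Dcc, whose lesioned values are 8.61, 7.22 and 6.64 CPM after acute and 4.55, 5.31 and 4.62 CPM after chronic dosing, fell by 0.63 without overlap (SE 0.11, adjusted p = 0.00281). The netrin receptor Unc5c (-0.49), Ntn4 (-0.47), Robo4 (-0.53), Epha3 (-0.58) and Efnb3 (-0.36) were lower as well. The 3 netrin receptors called were all lower.

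Like several of these genes, oligodendrocyte markers were lower in the chronic lesioned group. All 11 were called lower in the chronic than in the acute lesioned libraries, with a median log2 difference of -0.82, as were 9 of 11 microglial, 4 of 5 blood, 4 of 11 endothelial and mural and 3 of 9 astrocyte markers (1 astrocyte marker was higher). The endothelial and mural markers summed to 58.6 to 71.7 CPM in the acute and 45.8 to 56.7 CPM in the chronic lesioned libraries. In the acute lesioned libraries the marker sum was 3820, 2880 and 2300 CPM for replicates 1 to 3, and Unc5b was highest in replicate 1 and lowest in replicate 3 likewise. In the chronic lesioned libraries the sum was 1290, 2280 and 1490 CPM, and Unc5b, Plxnb3, Sema6a, Sema6d and Sema4d were all highest in replicate 2. In the chronic unlesioned libraries, with sums of 1720, 2460 and 1800 CPM, Unc5b stood at 4.14, 9.64 and 6.36 CPM and was also highest in replicate 2. The acute unlesioned libraries had sums of 2560, 2410 and 2270 CPM and Unc5b at 10.8, 9.77 and 11.1 CPM. There Unc5b was highest in replicate 3, where the sum was lowest. At sums of 2300 CPM (acute lesioned replicate 3) and 2280 CPM (chronic lesioned replicate 2), Unc5b stood at 10.1 and 7.84 CPM. The part of oligodendrocytes and of vessel, microglial, astrocyte and blood cells in these falls, those of Unc5b and Robo4 included, was not tested. Unc5b, Plxnb3 and Dcc were called lower under every alternative. So was Efna4, which passed the count filter only through the acute lesioned libraries, in which it was high. The calls of Sema6a, Sema6d, Sema4d, Plxna3, Efnb3, Epha3, Robo4, Unc5c and Ntn4 were lost in 2 to 10 of the 12 alternatives. The number of called members was 15 without acute lesioned replicate 1 and 15 without replicate 2 of that group, beside 15.9% and 14.6% of all genes. It was 13 without chronic lesioned replicate 1 and 14 without replicate 3 of that group, beside 14.0% and 17.7% of all genes. Without chronic lesioned replicate 2 it was 33, beside 31.0% of all genes.

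**Figure D4:**
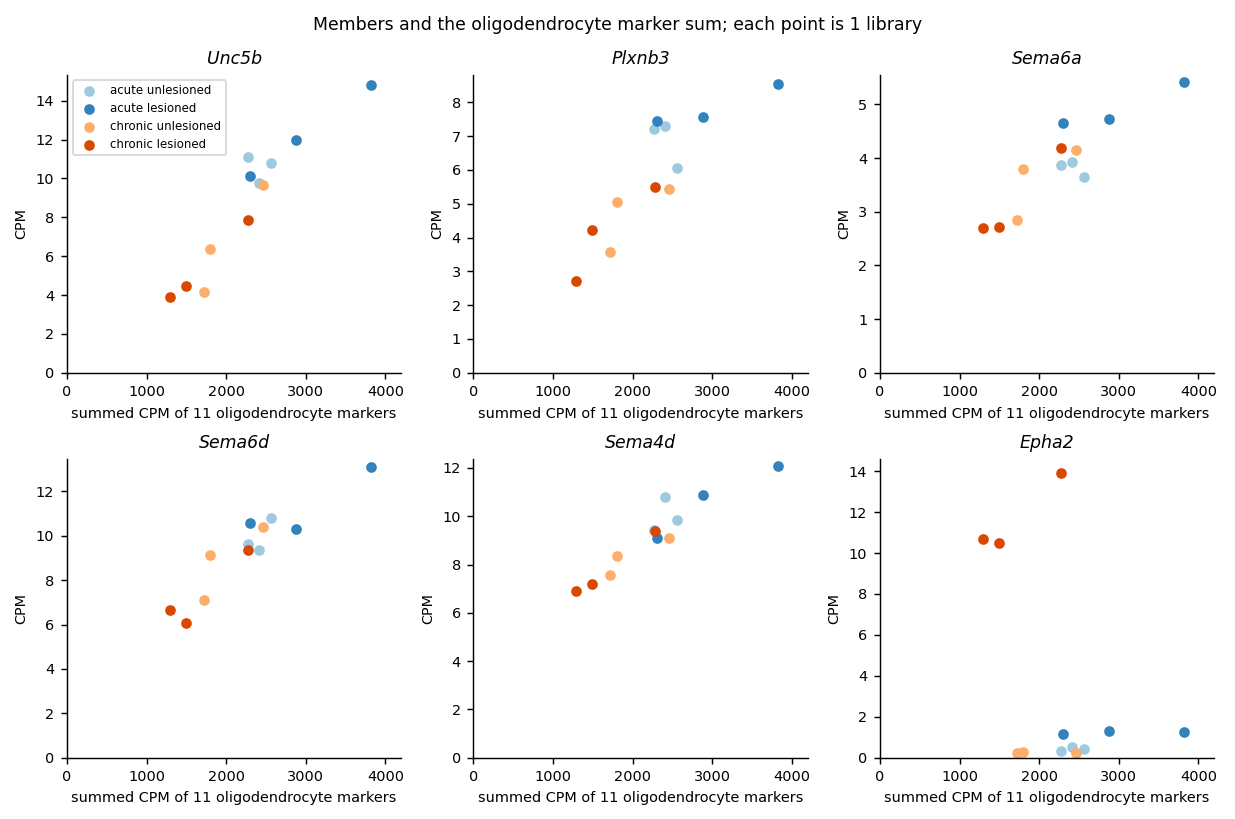
Level in CPM of 6 genes (vertical) against the summed CPM of 11 oligodendrocyte markers (horizontal), with 1 point for each of the 12 libraries, coloured by group. Unc5b, Plxnb3, Sema6a, Sema6d and Sema4d are low in chronic lesioned replicate 1, the library with the lowest sum, and Epha2 is highest in the 3 chronic lesioned libraries.

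Between the 2 unlesioned groups, chronic against acute, 1 of 66 genes tested was called (1.52%), where 3.07% of all genes and 3.95% of those averaging at least 1 CPM were called. It was Slit1, at 2.39, 2.49 and 2.31 CPM after acute and 3.60, 3.23 and 4.22 CPM after chronic dosing. The groups did not overlap (log2 0.63, SE 0.10, adjusted p = 0.0177), and the call was lost without any of the 3 acute unlesioned replicates or without chronic unlesioned replicate 3 (adjusted p up to 0.103). Slit1 was higher on the lesioned than on the unlesioned side at both times and higher after chronic dosing on both sides, with a mean that was lowest in the acute unlesioned and highest in the chronic lesioned group. Of the 66 members tested, 21 had an unadjusted p under 0.05, as had 4631 of all 20290 genes. Over all genes tested, the libraries of the 2 groups did not overlap in 26.6%. DESeq2 called 7 of the members and 5.7% of all genes. Without chronic unlesioned replicate 1 there were 2 called members and 0.766% of all genes. Without chronic unlesioned replicate 2, 12 members were called (5 higher and 7 lower), where 12.1% of all genes were called. That library has the highest oligodendrocyte marker sum and the choroid plexus RNA of its group.

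Other genes of the pathway were counted on 3 lists that do not follow the symbol rule. Of 29 further guidance cues and their receptors, 1 was called higher and 6 lower in the acute lesion comparison, and 5 were called in the chronic one, all lower, where 8.16% of all genes were called higher and 7.16% lower in the acute and 8.46% and 5.2% in the chronic comparison. The synaptic adhesion genes Slitrk5 (log2 -0.74 acute and -0.52 chronic), Slitrk3 (-0.53 and -0.70) and Slitrk2 (-0.32 and -0.48) and Flrt1 (-0.30 and -0.34) were lower in both. Flrt3, a ligand of Unc5 receptors and latrophilins, was lower after acute dosing (-1.07, adjusted p = 7.75e-06), was not called after chronic dosing, and its interaction was called (1.06, adjusted p = 0.000414). Rtn4r, the Nogo receptor, was lower after chronic dosing (-1.31, adjusted p = 0.0115). Of 12 adhesion molecules that act as co-receptors, 2 were called in each lesion comparison, all lower, namely L1cam (-0.32) and Chl1 (-0.29) after acute and Chl1 (-0.82) and Ncam2 (-0.56) after chronic dosing, against 15.3% and 13.7% of all genes called in either direction.

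Of 55 intracellular effectors, 6 rose and 8 fell after acute dosing, and 6 rose and 3 fell after chronic dosing, beside the same 15.3% and 13.7% of all genes. Dock4, an activator of Rac, fell in both (log2 -0.73 and -0.66). Vasp (0.70 and 0.49) and Cfl1, which severs actin filaments (0.24 and 0.44), rose in both. Rnd1, a small GTPase that binds plexins, rose after chronic dosing (1.22, adjusted p = 0.000937). Crmp1, a mediator of Sema3a signals, was 0.38 lower on the log2 scale in the acute comparison (log2 -0.38), and its interaction was called (0.55, adjusted p = 0.0147), as were those of Mical2 (0.59), Srgap1, a partner of Robo receptors (0.57), and Abl2 (0.47).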

How the data were processed

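Total RNA of striatal punches was made into TruSeq libraries, sequenced on a Genome Analyzer II and mapped by the authors to mm9 with the Genomatix Mining Station. The deposited table used here holds raw counts per transcript, in which a read counts on every transcript it overlaps. The strand and the treatment of reads that map to several places are not given in the sources used here. A normalized signal per transcript, which the authors deposited beside the counts, served only as a check. Tables of their own comparisons (p-values and fold changes, with 36 per-sample columns) were not used. Rows without a gene name (296, with 0.0485% of counts) were left out, which left library totals of 87695043 to 173116525 counts. Counting on several transcripts makes these totals larger than the number of reads. Intervals and standard errors rest on 3 libraries a group.

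Counts were fitted with edgeR 4.0.16 (R 4.3.3) by quasi-likelihood, with filterByExpr, TMM scaling and p-values adjusted over all transcripts tested. The 2 groups of a comparison entered each fit, and all 12 libraries the interaction. Levels are CPM of the most abundant transcript of each gene after TMM scaling. A permutation test of 3 against 3 libraries cannot go below p = 0.1, so none was run. The fits were tested on simulated counts in which all transcripts had the same relative spread. Of 100 transcripts changed by 1 on the log2 scale, the fit of 2 groups recovered 87 and the interaction 41. Both recovered all 100 transcripts changed by 2. The interaction can thus miss changes of the smaller size.

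The symbol rule, the gene and marker lists and the tests were chosen with earlier results of these data known. Full values are given for members called with a log2 change of at least 0.585 and a mean of at least 1 CPM in either group (up to 8 per direction), for those called in the interaction, and for the most abundant member of each family. Other members are named where their family, ligand or receptor is described.

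Lesioned and unlesioned libraries of the same replicate number deviated together from their group means over 12795 genes (correlations 0.478, 0.49 and 0.384 acute, and 0.513, 0.573 and 0.16 chronic). The replicate block takes the numbers as pairs, whereas the main fits, which gave the calls, hold no pairing. The third chronic pair (0.16) is close to the unmatched pair of chronic unlesioned replicate 3 and lesioned replicate 1 (0.153) and below that of replicate 3 of the lesioned groups across treatments (0.23), whereas the other unmatched pairs within a treatment lay between -0.513 and 0.088. The alternatives were DESeq2 1.42.0, its size factors in edgeR, no filter on low counts, a table of a single transcript per gene, a replicate block, a fit on all 12 libraries, and leaving out each replicate.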

Additional observations from a re-analysis of the deposited data

Results flagged for a closer look

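For 5 members the difference between lesioned and unlesioned striatum was larger after chronic than after acute L-DOPA by the interaction test of edgeR on all 12 libraries. The change of the log2 difference was 4.07 for Epha2, 1.13 for Sema4c, 1.0 for Efnb1, 0.78 for Ephb6 and 0.66 for Sema7a. For Epha2, Sema4c and Efnb1 the 3 chronic lesioned libraries were above all 9 others. The calls of Ephb6 (adjusted p = 0.0381) and Sema7a (adjusted p = 0.0382) were lost when single libraries were left out, with changes that ranged from 0.57 to 0.93 and from 0.54 to 0.77.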

How the results depend on the processing

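No log2 difference of a called member turned its sign under any alternative tried. The number of called members in the acute comparison was 17, and 10 in a fit on all 12 libraries, beside 15.3% and 10.4% of all genes. In the chronic comparison it was 15, and 27 with the replicate block, beside 13.7% and 24.2%. The interaction called 5, and 16 with the block, beside 5.1% and 13.4%. In the unlesioned comparison 1 member was called, beside 3.07% of all genes. There DESeq2 called 7 (5.7% of all genes), the fit with no filter on low counts 4 (2.95%) and the replicate block 2 (2.63%). When each library was left out in turn, the counts were 10 to 17 (acute), 9 to 17 (chronic) and 13 to 33 (chronic against acute lesioned). The share of all genes called was then 8.96% to 13.8%, 8.37% to 13.1% and 14.0% to 31.0%. The counts were 0 to 12 (unlesioned) and 3 to 12 (interaction), beside 0.0679% to 12.1% and 3.27% to 7.84% of all genes. The cause was not tested. The block changed the count of calls by less than 1.5 times in the acute comparison and between the lesioned groups. DESeq2 size factors in edgeR gave the counts of the TMM scaling in all 5 comparisons. Epha1 and Ntn5 had too few counts to be tested in the main fits. Efna4 was tested in part of the comparisons only, at counts that allow a test of large differences alone.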
